A study of Mus musculus with 3 samples.

Results

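The 5 adhesion G protein-coupled receptor genes Adgre1, Adgre4, Adgre5, Adgrl3 and Adgrg1 were followed through all immune cell clusters and kidney compartments, out of 32886 genes in the table. They were chosen by name, and the choice was made with measured values of these data in view: the lower levels of Adgrl3, Adgre4 and Adgre5 in medullary than in cortical resident macrophages were already known. The levels of the 5 genes in resident macrophages by compartment, and their levels over clusters, are therefore a description without a test. Immune cells were sorted for CD45 from dissected kidneys of male wild-type C57BL/6J mice aged 10 weeks that had received no treatment, and the groups were 3 compartments: cortex, outer medulla (OM), inner medulla (IM). Single-cell RNA sequencing was run at 3 facilities, and these Aachen, Bonn and Hamburg datasets served as replicates (n = 3). The cells of 1 compartment in 1 dataset formed 1 library, which gave 9 libraries with 621 to 3677 cells and 2122809 to 15267126 unique molecular identifiers (UMIs). The labels do not say how many mice each library holds. With the dataset as block, p-values measure how the differences between compartments vary over these datasets, and not a spread between mice.

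Adhesion GPCRs carry a long extracellular part joined to the seven-transmembrane receptor by a GAIN domain, in which most of them cleave themselves. The piece that stays with the membrane begins with a tethered agonist, a short peptide that activates the receptor once it is exposed, and signals often pass through the G12/13 class of G proteins to RhoA. The ADGRE branch bears EGF-like domains and is known from leukocytes, and F4/80, the protein of Adgre1, is the classical surface marker of mouse tissue macrophages, kidney included.

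**Figure D1:**
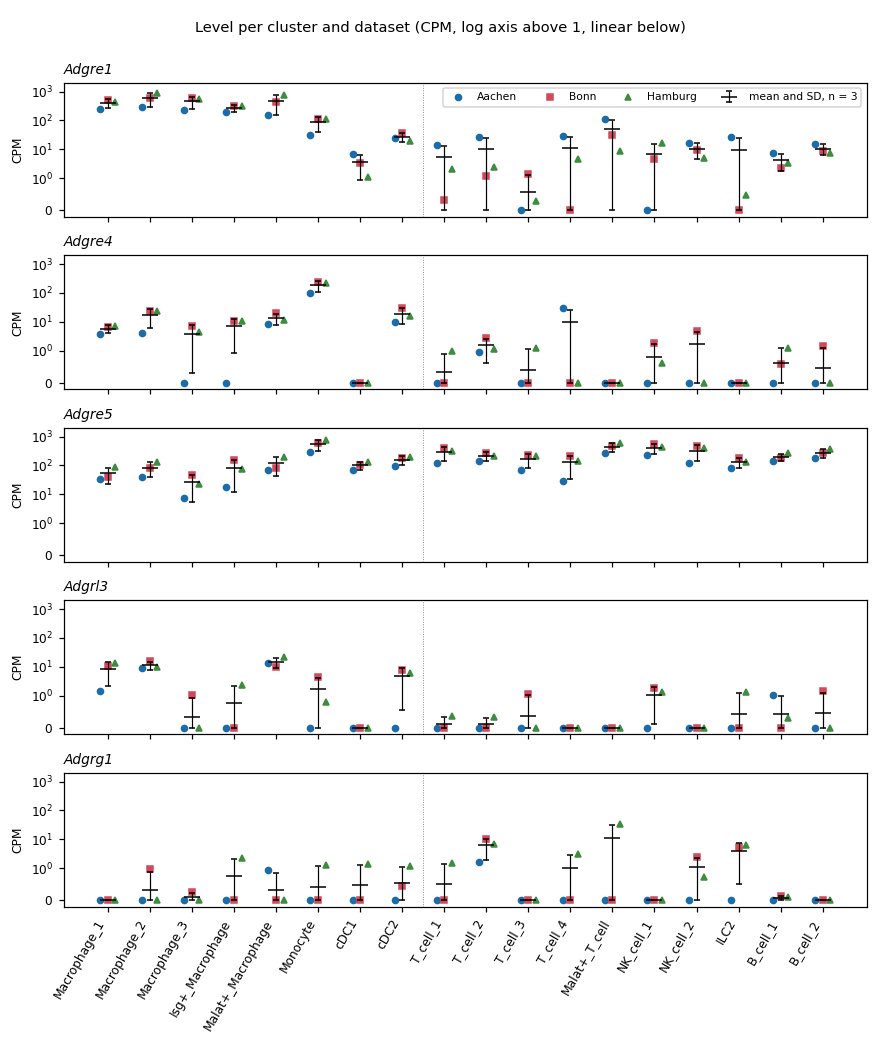
Levels of the 5 adhesion GPCR genes in CPM (UMIs of the gene scaled by all UMIs of the cluster; logarithmic axis above 1, linear below) in the 18 clusters held by all 3 datasets, with 1 symbol per dataset and the mean with its SD (n = 3); bars that would pass 0 end there. Clusters left of the dotted line are myeloid; Adgre1 and Adgre4 sit highest there, and Adgre5 is found on both sides.

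The name myeloid adhesion GPCRs held for 3 of the 5 genes. Of the UMIs of Adgre1, 97.2% came from the 10 myeloid clusters, against 45.9% of the UMIs of all genes. For Adgre4 the share was 95.4%, and for Adgrl3 it was 91.5%. Adgre5 was shared between lineages, with 36.7% of its UMIs in myeloid and 61.4% in lymphoid clusters. Adgrg1 was mostly lymphoid, with 67.3% of its UMIs in the 11 lymphoid clusters, which held 51.4% of the UMIs of all genes. The genes also differed in how much was counted, from 13302 UMIs of Adgre5 to 86.2 UMIs of Adgrg1, which were found in 68 of 20266 cells, so that the values of Adgrg1 rest on very few molecules.

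On the mouse assembly GRCm38.p6, Adgre4 (chromosome 17, 55749984 to 55853662) and Adgre1 (chromosome 17, 57358581 to 57483529) lie on the same chromosome with 62 protein-coding genes between them. Adgre5 (chromosome 8, 83723245 to 83741311) and Adgrg1 (chromosome 8, 94974756 to 95014208) share another. Adgrg1 is followed after 2904 bases by Adgrg3, a further member of its branch. Adgrl3 (chromosome 5, 81019085 to 81827825) spans 808741 bases. RefSeq promoter windows of 300 bases, from 250 before to 50 after a gene start, were at hand for 3 of the 5 genes, namely Adgre4, Adgrl3 and Adgrg1. The windows of Adgre4 and Adgrl3 are shown because both genes were lower in medullary macrophages. Capitals mark the letters GAGGAAG, which belong to the ETS type, and TGTGGT, which belong to the RUNX type, on either strand.
Adgre4, chr17:55749734-55750033, plus strand: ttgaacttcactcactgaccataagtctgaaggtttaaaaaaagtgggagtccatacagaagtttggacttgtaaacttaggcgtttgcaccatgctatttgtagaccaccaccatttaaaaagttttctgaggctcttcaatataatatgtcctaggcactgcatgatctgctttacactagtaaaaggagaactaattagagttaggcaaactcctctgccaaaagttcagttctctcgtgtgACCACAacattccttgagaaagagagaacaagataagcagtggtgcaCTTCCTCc
Adgrl3, the second of 3 RefSeq starts, chr5:81020502-81020801, plus strand: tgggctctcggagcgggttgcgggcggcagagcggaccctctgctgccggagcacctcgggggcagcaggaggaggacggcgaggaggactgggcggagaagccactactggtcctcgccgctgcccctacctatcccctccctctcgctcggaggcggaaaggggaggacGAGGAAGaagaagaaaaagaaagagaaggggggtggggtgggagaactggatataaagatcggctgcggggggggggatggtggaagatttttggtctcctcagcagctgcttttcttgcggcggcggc
The Adgre4 window holds GAGGAAG on the minus strand at bases 293 to 299, counted from 1 at the 5′ end, and TGTGGT on the minus strand at bases 246 to 251. The Adgrl3 window holds GAGGAAG at bases 172 to 178. Of the other 2 Adgrl3 windows, the first holds neither motif and the third holds TGTGGT at bases 32 to 37, and the 2 Adgrg1 windows hold neither. Of 32851 RefSeq promoter windows of this length, 13.6% hold GAGGAAG and 16.8% hold TGTGGT. These matches describe letters only, and binding at them was not measured here.

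Adgre1 was highest in macrophages. Levels are given in CPM, the UMIs of a gene scaled by all UMIs of the cluster or class. In Macrophage_2 Adgre1 was at 284 CPM in Aachen, 620 in Bonn and 883 in Hamburg, a mean of 596 ± 299.99 CPM (SD, n = 3), the highest of 18 clusters. Aachen, made with an earlier version of the 10x kit, was the lowest dataset in all 5 macrophage clusters. Malat+_Macrophage (463 ± 312 CPM), Macrophage_3 (454 ± 197 CPM) and Macrophage_1 (401 ± 141 CPM) followed and did not differ from each other, as neighbours in this order, beyond the spread of their differences within datasets. Isg+_Macrophage, which expresses interferon-stimulated genes, lay at 273 ± 71.9 CPM, and Monocyte at 85.6 ± 46.4 CPM. That step was larger than its spread, with a mean log2 difference of 1.83 ± 0.61 within datasets. Neutrophils, with enough cells in Bonn and Hamburg only, held 170 and 200 CPM, above Monocyte in both (111 and 113 CPM). In the dendritic cells Adgre1 was low, at 26.4 ± 8.88 CPM in cDC2 and 3.70 ± 2.77 CPM in cDC1.

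Adgre4, which encodes the EGF-like receptor FIRE, was a gene of monocytes. Monocyte held 95.6 CPM in Aachen, 233 in Bonn and 221 in Hamburg (183 ± 76.3 CPM). Of the 18 clusters held by all datasets cDC2 was next, with 9.60, 30.0 and 16.5 CPM (18.7 ± 10.4 CPM). Neutrophils, with enough cells in Bonn and Hamburg only, held 13.1 and 72.9 CPM, in Hamburg above cDC2. In every dataset Monocyte lay above every other cluster, and the mean log2 difference to cDC2 was 3.26 ± 0.38. Among the macrophages the level was 17.0 ± 11.02 CPM in Macrophage_2, 5.75 ± 1.75 in Macrophage_1 and 3.89 ± 3.59 in Macrophage_3. The order of cDC2, Macrophage_2 and Malat+_Macrophage (13.3 ± 5.78 CPM) was within their spread. No UMI of Adgre4 was counted in cDC1, where 3 counts would have given 1.27 CPM.

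Adgre5, which encodes CD97, a receptor of CD55 and of Thy1, was found in every cluster. Of the 18 clusters held by all datasets it was highest in Monocyte, with 297 CPM in Aachen, 600 in Bonn and 730 in Hamburg (542 ± 222 CPM). B_cell_3, with enough cells in Hamburg only, held 744 CPM there, above the Hamburg monocytes. Malat+_T_cell (451 ± 161 CPM) and NK_cell_1 (409 ± 163 CPM) came next. The lowest means belonged to resident macrophages: 53.7 ± 30.6 CPM in Macrophage_1 and 25.9 ± 20.5 CPM in Macrophage_3, the last of 18 clusters. The difference between Macrophage_1 and Macrophage_3 was within its spread, and in Bonn Macrophage_3 (47.8 CPM) lay above Macrophage_1 (38.8 CPM). Neutrophils, with enough cells in Bonn and Hamburg only, held 418 and 568 CPM. Adgre1 and Adgre5 thus ordered the myeloid clusters in different ways: Macrophage_2, highest for Adgre1, held 83.1 ± 44.5 CPM of Adgre5, below the level of Monocyte in each dataset.

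Adgrl3, which encodes latrophilin 3, a receptor of teneurins and FLRT proteins known mainly from synapses, was sparse and was found in some macrophages. Malat+_Macrophage held 14.8 ± 5.95 CPM, Macrophage_2 11.4 ± 3.74 CPM and Macrophage_1 8.37 ± 6.12 CPM, with no difference beyond the spread between them. Macrophage_3 held 0.00 CPM in Aachen, 1.02 in Bonn and 0.00 in Hamburg. Macrophage_1, the third, lay beyond the spread above its neighbour cDC2 (4.66 ± 4.10 CPM). Macrophage_3 and Macrophage_1 did not differ in Adgre1 beyond the spread of the datasets, whereas Adgrl3 in Macrophage_3, at a mean of 0.341 ± 0.591 CPM, lay below Macrophage_1 in each dataset. Macrophage_3 had no cortical library in Aachen and Hamburg, however. In the OM of Aachen and Bonn both clusters held 0.00 CPM, and in the Bonn IM Macrophage_3 was higher (3.07 against 1.48 CPM). In Hamburg Macrophage_3 held 0.00 CPM, against 4.78 CPM in the OM and 7.27 CPM in the IM of Macrophage_1.

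Adgrg1, which encodes GPR56, a receptor found on cytotoxic lymphocytes in humans, was close to the limit of counting. Its highest mean, 11.4 ± 19.8 CPM in Malat+_T_cell, came from 34.3 CPM in Hamburg, mostly its OM library (86.6 CPM from 7.91 UMIs). Aachen and Bonn held 0.00 CPM in the libraries with at least 20 cells of the cluster. With all cells of the cluster summed the mean was 22.7 CPM, and 2.56% of the 39 Aachen cells held a UMI. Of the 18 clusters T_cell_2 was the one with a level above 0 in all 3 datasets, at 1.65, 9.92 and 6.85 CPM (31.8 UMIs in all). NK_cell_1 and T_cell_3 held none, where 3 counts would have given 1.73 and 0.776 CPM.

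Depth differed between the datasets, with a median of 887 UMIs per cell in Aachen, 3291 in Bonn and 2944 in Hamburg. An Adgre4 UMI was found in 13.5% of monocytes in Aachen, 60% in Bonn and 51.1% in Hamburg. With every cell thinned to 500 UMIs, which left out 4 of 714 monocytes, the share was 2.35% in Aachen, 14.7% in Bonn and 11.7% in Hamburg (9.57 ± 6.43%). The datasets thus still differed in Adgre4 at equal depth, and the cause was not tested. In lymphocytes, which should lack the gene, the unthinned share was 0.222 ± 0.0819% of T cells and 0.247 ± 0.217% of B cells, and the thinned shares were 0.0607 ± 0.0122% and 0.0184 ± 0.0319%. Thinning was a single random draw. Median depths in Aachen, Bonn and Hamburg were 1709, 5342.5 and 4161 UMIs in monocytes and 973, 3274 and 3396 UMIs in T cells. For Adgre1 the thinned share was 19.1 ± 6.58% in resident macrophages and 4.03 ± 3.57% in monocytes, against 0.184 ± 0.278% in T cells. Adgrl3 at this depth was found in 20 of 5145 resident macrophages (0.554 ± 0.438%) and 1 of 5086 T cells. Unthinned, it was found in 2.77 ± 2.39% of resident macrophages, 0.0686 ± 0.0719% of T cells and 0.0720 ± 0.0189% of B cells. For Adgrg1 the unthinned share of 1.74 ± 1.38% in T_cell_2 compares with 0.0411 ± 0.0362% in B cells, both from few cells (27 and 2). Outside the 18 clusters held by all datasets it was 7.45 ± 0.413% in Undefined and 3.31 ± 3.73% in Prolif._cell, from 5 and 6 cells.

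Genes with a like pattern were sought by Pearson correlation of log2(CPM + 1) over the 18 clusters among 11283 genes. The clusters share libraries and were themselves built from expression, so these values only describe. Adgre1 was most like Lilra5 (r = 0.973), Tgfbr1, a receptor of TGF-beta (0.971), Slc15a3 (0.970), Cd14, the co-receptor of lipopolysaccharide (0.969) and Lamp2, a lysosomal membrane protein (0.968). Adgre4 was most like Thbd (thrombomodulin, r = 0.915), Sirpb1c (0.900), Emilin2 (0.889), Bach1 (0.887) and Cd300lb (0.884), each of which also peaked in Monocyte. For Adgre5 the genes were Ppp1cb (r = 0.928), Ggct (0.912), Gramd4 (0.898), Ppp2r5a (0.898) and Ubl7 (0.897). Adgrl3 had another adhesion GPCR, Adgrg6, in the second place (r = 0.870), after Gm44751 (0.874) and before E230013L22Rik (0.837), Zfp703 (0.833) and Nlrp1a (0.833). Adgrg1 was most like Zc3hav1l (r = 0.848), Zxdc (0.807), Fut8 (0.806), Spock2 (0.801) and Sec22b (0.792), all 5 with their highest mean in Malat+_T_cell.

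In resident macrophages (5367 cells of Macrophage_1, Macrophage_2, Macrophage_3 and Isg+_Macrophage) the question was how the genes differed between the compartments. Adgre4, Adgre5 and Adgrl3 were higher in the cortex than in both medullary libraries of the same dataset, in all 3 datasets. Adgre1, the general macrophage marker, showed no such order. The 8 resident macrophage markers, among them the complement genes C1qa, C1qb and C1qc, were all found in every one of these libraries.

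**Figure D2:**
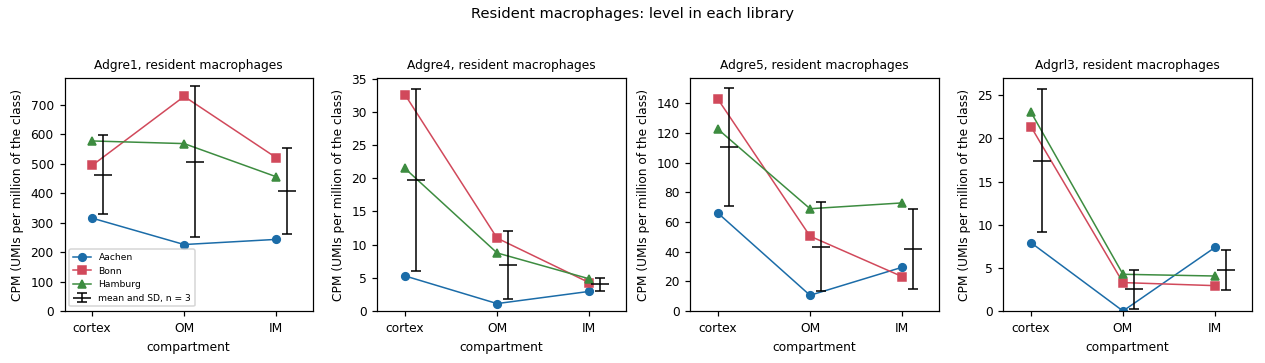
Levels of Adgre1, Adgre4, Adgre5 and Adgrl3 in resident macrophages, in CPM of the class on linear axes from 0, for cortex, OM and IM; each line is 1 dataset, and the bars give mean and SD (n = 3). Adgre4, Adgre5 and Adgrl3 lie higher in the cortex than in both medullary compartments of each dataset, and Adgre1 does not.

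Values of libraries are given in the order cortex, OM, IM. Adgre4 was at 5.28, 1.12 and 2.95 CPM in the Aachen libraries. In Bonn it was at 32.6, 10.98 and 4.27 CPM, and in Hamburg at 21.5, 8.75 and 4.85 CPM. The cortex was highest in each dataset, but the 3 Aachen values rest on 4, 2 and 2 UMIs, and the Aachen cortex lay below the OM of Bonn and Hamburg, so that compartments overlapped across datasets. The fitted log2 fold change of medulla against cortex was -2.03 ± 0.30 (SE).

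Adgre5 was at 66.0, 10.6 and 29.5 CPM in Aachen, at 143, 50.5 and 23.2 CPM in Bonn, and at 123, 69.0 and 72.9 CPM in Hamburg. The order of OM and IM differed between the datasets, while the cortex stood first in each, and the log2 fold change of medulla against cortex was -1.61 ± 0.25. Adgre1 was at 315, 226 and 243 CPM in Aachen, 494, 729 and 521 CPM in Bonn and 578, 569 and 456 CPM in Hamburg. Its OM level was the lowest of the 3 compartments in Aachen and the highest in Bonn, and its log2 fold change was -0.09 ± 0.15.

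Adgrl3 was at 7.92, 0.00 and 7.37 CPM in Aachen, at 21.4, 3.29 and 2.94 CPM in Bonn, and at 23.0, 4.26 and 4.06 CPM in Hamburg. In Aachen the cortex and the IM rested on 6 and 5 UMIs and hardly differed. Adgrl3 and Adgrg1 did not pass the filter on low counts. This contrast had chosen the genes, so no call is taken as a result for them. The closing section describes counts of calls without a test. Of the 8228 genes tested, 0.583% were lower in the medulla at an adjusted p under 0.05 and 1.23% differed in either direction. The order with the cortex above both medullary libraries in every dataset was shared by 5.19% of the genes tested. Adgrg1 had 0.00, 0.00 and 2.81 UMIs in resident macrophages of cortex, OM and IM over the 3 datasets.

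The make-up of the resident macrophages moved with the compartment. Macrophage_3 had the lowest mean of Adgre5, not beyond the spread to Macrophage_1, and nearly no Adgrl3. It made up 0.00%, 44.7% and 1.17% of the Aachen resident macrophages in cortex, OM and IM. The Bonn shares were 7.05%, 42.9% and 43.1%, and the Hamburg shares 0.00%, 23.0% and 15.4%. Within Macrophage_1 alone Adgre5 was still highest in the cortex of each dataset, at 73.2, 13.2 and 13.7 CPM in Aachen, 59.6, 32.2 and 24.6 CPM in Bonn and 149, 44.0 and 74.0 CPM in Hamburg, a log2 fold change of -1.59 ± 0.24. Of these values, the Bonn cortex and OM rest on 6 and 5 UMIs and the Aachen IM on 3. Within Macrophage_2 Adgre5 was highest in the cortex in Aachen and Bonn, but in Hamburg the cortex (86.2 CPM) lay below the OM (179 CPM) and the IM (116 CPM), and the log2 fold change shrank to -0.59 ± 0.25. Adgre4 in Macrophage_2 was at 36.0, 23.6 and 11.6 CPM in Bonn and at 38.0, 25.6 and 5.16 CPM in Hamburg, in the order cortex, OM, IM in both. In Aachen it was at 3.70, 6.63 and 2.42 CPM, from 1, 2 and 1 UMIs. Adgrl3 was highest in the cortex of each dataset within Macrophage_1, at 4.44, 0.00 and 0.00 CPM in Aachen, 29.8, 0.00 and 1.48 CPM in Bonn and 27.5, 4.78 and 7.27 CPM in Hamburg. The same held within Macrophage_2, at 14.8, 0.00 and 12.10 CPM in Aachen, 23.7, 11.8 and 11.6 CPM in Bonn and 22.7, 5.85 and 0.00 CPM in Hamburg. Both rest on few UMIs, at most 60 in a library. Macrophage_3 had enough cortical cells in Bonn only, where Adgre5 was at 94.4, 34.3 and 14.6 CPM in cortex, OM and IM.

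Markers of monocytes, the cells in which Adgre4 and Adgre5 were highest, moved in part with these levels. The 6 monocyte markers summed to 6.23, 2.52 and 1.41 UMIs per 10000 in the resident macrophages of Bonn. In Hamburg the sums were 2.71, 1.88 and 2.85, and in Aachen 1.58, 0.440 and 2.005, with the IM highest in both. In the monocytes themselves the sum ranged from 33.0 to 48.7 over the libraries. The OM sum was below the cortex in each dataset. Of the lymphocyte lists, the 5 NK cell markers summed to 0.383, 0.295 and 0.722 in the Aachen libraries. The Bonn sums were 1.15, 0.198 and 0.200, and those of Hamburg 0.268, 0.124 and 0.0115. The part of these cells in the levels of Adgre4 and Adgre5 was not tested. After leaving out 399 resident macrophages with at least 2 UMIs from lymphocyte (T or B) markers, the log2 fold change was -2.40 ± 0.34 for Adgre4 and -1.63 ± 0.29 for Adgre5. No doublet caller was run. Without the Bonn cortex library, in which Macrophage_2 made up 83.3% of resident macrophages, the log2 fold change was -1.74 ± 0.54 for Adgre4 and -1.23 ± 0.29 for Adgre5. Without the dataset as a block it was -1.86 ± 0.57 and -1.38 ± 0.49.

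Malat+ macrophages (1043 cells of the cluster Malat+_Macrophage) were not used to choose the genes, although they come from the same 9 libraries. Adgre4 and Adgre5 were again highest in the cortex in each dataset, and neither passed the test after adjustment. Adgre5 was at 115, 39.0 and 54.0 CPM in Aachen, at 128, 75.9 and 34.7 CPM in Bonn and at 267, 194 and 145 CPM in Hamburg. The cortex stood first in every dataset, and the log2 fold change of medulla against cortex was -0.91 ± 0.30, with a 95% interval from -1.53 to -0.29 and an adjusted p of 0.601 over 2832 genes (edgeR). With edgeR 0 of the 2 genes that passed the filter, Adgre1 and Adgre5, were called and 1 was at an unadjusted p under 0.05, and DESeq2 called 0. Over all genes 167 of the 2832 tested were at an unadjusted p under 0.05 (edgeR). In this class 0.0706% of the genes tested were called, and the order with the cortex first in every dataset was shown by 5.47% of them.

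Adgre4 in Malat+ macrophages did not pass the filter on low counts. It was at 23.0, 2.78 and 0.00 CPM in Aachen, at 52.2, 0.00 and 6.94 CPM in Bonn and at 22.6, 4.46 and 7.32 CPM in Hamburg, from 18.9 UMIs in all, 11 of them in the Bonn cortex. All 3 cortical values exceeded all 6 medullary ones. The Aachen values rest on 1, 1 and 0 UMIs, however, and the Hamburg values on 2.92, 0.98 and 0.98. An exact two-sided permutation test of the compartment within datasets, added after the values were seen, gave p = 0.037, the smallest that 27 arrangements allow, for both Adgre4 and Adgre5, and an adjusted p of 0.247 over the 20 pairs of gene and class tested. Adgre5 in B cells had the same p and adjusted p in this permutation test. Adgre1 in this class was not lower in the medulla, at 0.24 ± 0.24 (95% interval -0.25 to 0.73, adjusted p = 0.9995, edgeR). Adgrl3, with 16.0 UMIs, had a mean log2 difference of -0.38 ± 0.40 (SD, n = 3, exact permutation p = 0.482). The monocyte markers summed to 3.91 to 7.41 UMIs per 10000 in cortical, 0.974 to 3.01 in OM and 1.17 to 6.10 in IM libraries of this class, so they too were higher in the cortex than in both medullary libraries of each dataset. The NK cell markers had the same order in each dataset, with Aachen at 5.52, 2.95 and 3.96, Bonn at 2.90, 0.190 and 0.139 and Hamburg at 1.36, 0.432 and 0.248. The T cell markers were highest in the cortex in Bonn (7.79, 1.33 and 0.902) and Hamburg (0.714, 0.626 and 0.314) and in the IM in Aachen (5.52, 4.70 and 6.12). The B cell markers reached 90.8 in the Bonn IM. The part of monocytes and lymphocytes, in which Adgre5 was also found, in these values was not tested.

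**Figure D3:**
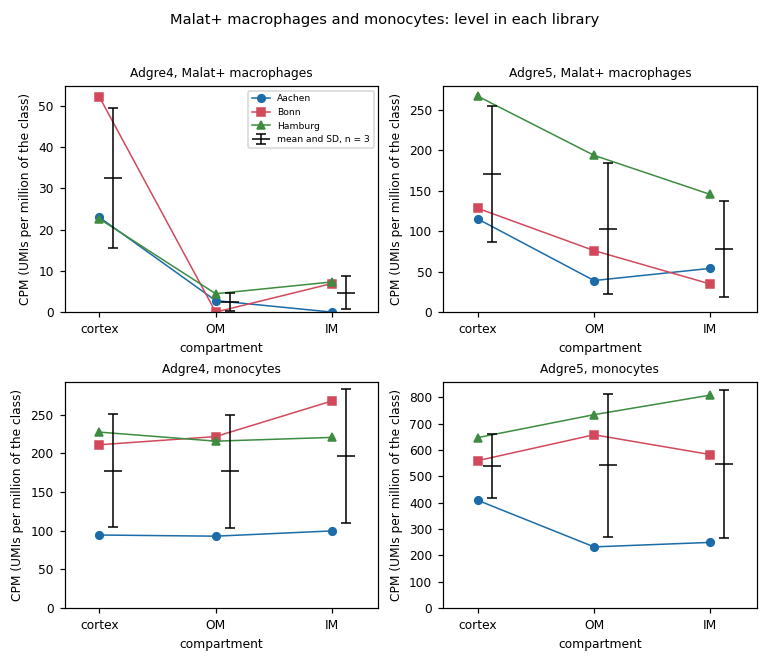
Levels of Adgre4 and Adgre5 in Malat+ macrophages (top) and monocytes (bottom), in CPM of the class on linear axes, for cortex, OM and IM; each line is 1 dataset, and the bars give mean and SD (n = 3). The cortex is highest in each dataset in Malat+ macrophages, whereas in monocytes the lines are level or differ in direction.

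Monocytes, where Adgre4 and Adgre5 were highest, gave no call for either gene between compartments. Adgre4 was at 94.3, 92.8 and 99.6 CPM in Aachen, at 211, 222 and 268 CPM in Bonn and at 227, 216 and 221 CPM in Hamburg. Its Aachen values rest on 6, 4 and 6 UMIs. The compartments of a dataset lay close together, and the log2 fold change was 0.08 ± 0.18 with a 95% interval from -0.29 to 0.44. Adgre5 was at 409, 232 and 249 CPM in Aachen, at 560, 658 and 583 CPM in Bonn and at 647, 734 and 808 CPM in Hamburg. The cortex was highest in Aachen and lowest in Bonn and Hamburg, and the log2 fold change was 0.05 ± 0.16 (95% interval -0.26 to 0.37). Both intervals exclude a halving in the medulla.

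Adgre1 in monocytes was at 62.9, 0.00 and 33.2 CPM in Aachen, at 132, 118 and 84.2 CPM in Bonn and at 124, 100 and 116 CPM in Hamburg. The Aachen values rest on 4, 0 and 2 UMIs. The cortex was first in each dataset, an order shown by 3.21% of the genes tested in this class, and the log2 fold change of -0.41 ± 0.22 (95% interval -0.85 to 0.03) did not pass. With edgeR, 0 of the 3 genes tested in monocytes passed, 0 were at an unadjusted p under 0.05, and DESeq2 called 0, beside 0.312% of all 5455 genes. The contrast between resident macrophages and monocytes was not tested, since the macrophage values had chosen the genes.

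In cDC2, B cells, T cells and NK cells Adgre5 alone of the list passed the filter on low counts, so the other genes were not tested. Adgre5 did not differ between medulla and cortex at an adjusted p under 0.05 in any of these classes (edgeR). Of the 4 tests 1, that of Adgre5 in B cells, was at an unadjusted p under 0.05, and DESeq2 called 0. Over all genes 276 of the 8509 tested in B cells were at an unadjusted p under 0.05 (edgeR). In cDC2, Adgre5 was at 95.97, 60.3 and 123 CPM in Aachen, 219, 189 and 145 CPM in Bonn and 185, 225 and 164 CPM in Hamburg, without a common order, at -0.15 ± 0.20 (95% interval -0.57 to 0.28), where 0.293% of all genes were called. In this class 5.42% of the genes tested had the cortex first in every dataset, and none of the 5 adhesion GPCRs did.

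In B cells Adgre5 was at 226, 84.8 and 130 CPM in Aachen, 200, 180 and 199 CPM in Bonn and 327, 283 and 278 CPM in Hamburg. The cortex was first in each dataset, barely so against the Bonn IM, and 2.83% of the genes tested had that order. The log2 fold change was -0.32 ± 0.14 (95% interval -0.62 to -0.03) with an adjusted p of 0.9998 (edgeR), and 0.0353% of all genes were called. The exact permutation test, added after the values were seen, gave p = 0.037 and an adjusted p of 0.247, as in Malat+ macrophages. In T cells Adgre5 was at 155, 83.1 and 121 CPM in Aachen, 324, 358 and 278 CPM in Bonn and 268, 235 and 239 CPM in Hamburg, with the OM lowest in Aachen and highest in Bonn. Its log2 fold change was -0.18 ± 0.12 (95% interval -0.43 to 0.07), and 0.0117% of the 8522 genes were called.

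**Figure D4:**
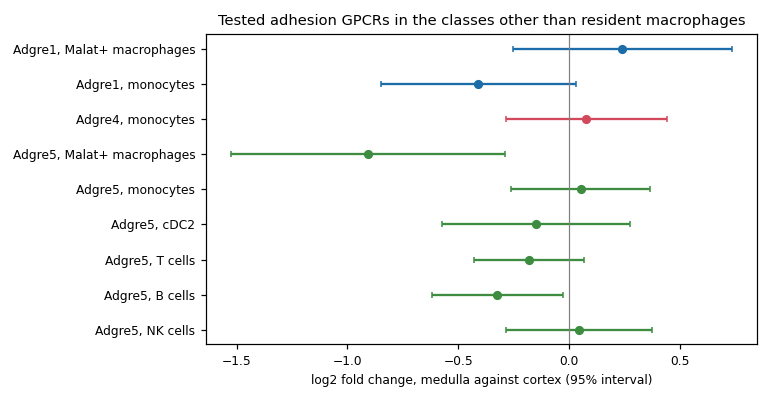
Fitted log2 fold changes of medulla against cortex (edgeR) with their 95% intervals for the adhesion GPCRs that passed the filter on low counts in each class other than resident macrophages. The interval leaves out 0 for Adgre5 in Malat+ macrophages and in B cells, and none passed after adjustment.

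In NK cells, where the Bonn OM was left out with 19 cells, Adgre5 was at 241, 166 and 147 CPM in Aachen, 514 and 462 CPM in the cortex and IM of Bonn and 378, 460 and 446 CPM in Hamburg. The cortex was the highest compartment in Aachen and Bonn and the lowest in Hamburg. The log2 fold change was 0.04 ± 0.17 (95% interval -0.29 to 0.37), beside 0.627% of all genes called.

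The effects of the medulla in lymphocytes were also compared with each other. For Adgre5 the log2 fold change in T cells exceeded that in B cells by 0.13 ± 0.20, lay below that in NK cells by -0.23 ± 0.20 and was -0.34 ± 0.23 in B cells minus NK cells, each with an adjusted p of 1 (edgeR interaction). Over all genes 0.0208%, 0.048% and 0.0% were called in T minus B cells, T minus NK cells and B minus NK cells.

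The other genes of the pathway stayed without a call in resident macrophages, where 1.23% of the 8228 genes tested were called in either direction. At that share few calls would be met in lists this small, so their absence is only described. Of 24 further adhesion GPCRs, 1 passed the filter on low counts: Adgrg6, which encodes GPR126, a receptor of collagen IV, at -0.55 ± 0.30 with an adjusted p of 0.590 (edgeR). Of 20 ligands and partners 6 were tested and 0 called in either direction, with a median log2 fold change of -0.24 against 0.01 over all genes tested. The 3 with the highest level were the tetraspanin Cd81 (0.11 ± 0.11), the integrin subunit Itgb1 (0.06 ± 0.12) and the tetraspanin Cd9 (-0.74 ± 0.23, adjusted p = 0.170, edgeR). Thy1, named here because CD97 binds it and chosen after its value was seen, was at -2.10 ± 0.51 (adjusted p = 0.063, edgeR). Thy1 is also a T cell gene, and the 6 T cell markers in resident macrophages summed to 0.449, 0.485 and 1.24 UMIs per 10000 in cortex, OM and IM of Aachen. The sums were 2.27, 0.571 and 0.238 for Bonn and 0.0748, 0.100 and 0.0885 for Hamburg. Their cortical sum was the highest in Bonn and the lowest in the other datasets, and their part in the value of Thy1 was not tested. Of 15 transducers all were tested and 0 called, with log2 fold changes from -0.29 to 0.45 and a median of 0.09. The best measured were the G protein subunit Gnai2 (0.13 ± 0.12), the GTPase Rhoa (-0.12 ± 0.12) and the G protein subunit Gnas (-0.24 ± 0.12).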

How the data were processed

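The table analysed here holds, for each of 20266 cells, the expected counts of UMIs per gene with the cluster, compartment and facility that the authors assigned. The authors counted with Cell Ranger on mm10 and kept, integrated and clustered cells in Seurat. The deposited values are whole in Aachen and Bonn, whereas 0.118% of those above 0 are exactly whole in Hamburg, so the table was treated as estimated counts; what made the Hamburg values fractional is not given in the sources used here. Of the barcodes, 29 were shared between libraries of a dataset. Counts were summed per library and class (at least 20 cells), rounded, filtered with filterByExpr on the compartment, scaled by TMM and compared in edgeR 4.0.16 (R 4.3.3) with glmQLFit and glmQLFTest, the dataset as block, medulla as the mean of OM and IM, and Benjamini-Hochberg adjustment over all genes at a threshold of 0.05. CPM in the text are plain sums without TMM. DESeq2 1.42.0 was an alternative. For levels over clusters, libraries with at least 20 cells of the cluster were averaged with equal weight within a dataset and then over the 3 datasets, and the 5 genes with the highest correlation to each member, among genes with at least 10 CPM in a cluster, were named. Single values were compared by exact permutation within datasets. No doublet caller was run.

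The datasets pair the libraries, since each holds all 3 compartments processed at 1 facility; the kit version, from the study's list of datasets, is earlier in Aachen than in Bonn and Hamburg. The members and gene lists were chosen with earlier results of these data known. A further gene of the set is not reported here. From the lists, up to 6 genes that passed and up to 3 that did not, by level, were to be named. On simulated libraries of this size edgeR recovered 75% of genes changed 2-fold and 90% changed 4-fold in resident macrophages (8228 genes), 33% and 69% in Malat+ macrophages (2832 genes) and 47% and 78% in monocytes (5455 genes), with 20, 2 and 4 false calls. Python 3.11.15 was used for levels and shares.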

Additional observations from a re-analysis of the deposited data

How the results depend on the processing

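The contrast in resident macrophages had chosen the genes, so its calls, 2 of the adhesion GPCRs (Adgre4 and Adgre5), and their number under the alternatives are a description and no test. Without the replicate block the count was 0 (2 at an unadjusted p under 0.05; edgeR), with log2 fold changes of -1.86 and -1.38, and DESeq2 with the block called 2. It was 1 after thinning to 500 UMIs and within Macrophage_1, and 0 within Macrophage_2; Adgre4 did not pass the filter in these 3. It was 0 without the Bonn cortex library (added after seeing the data) and ranged from 1 to 3 with each dataset left out in turn. With 3 it included Adgrl3, which passed the filter without Aachen, without the Aachen IM library (added after seeing the data) and with no filter. Adgrl3 also passed the filter without Hamburg and was not called there (-2.77). Adgre4 was not called without Hamburg (-2.17) and was not tested without Bonn. The list of family, ligands and transducers rose from 0 calls to 3 with no filter (Cd55, Cd9 and Thy1, all lower in the medulla), 2 without the Aachen IM library and 1 after thinning, and ranged from 0 to 3 with each dataset left out.

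Over all genes, 101 were called in resident macrophages, 0 without the replicate block, 47 with DESeq2, 382 with no filter and 6 to 237 with a dataset left out, the lowest without Hamburg. After thinning to 500 UMIs 22 genes were called higher and 24 lower in the medulla, of 3646 tested. Without the Bonn cortex library these were 5 and 9 of 8437, and without the Aachen IM library 121 and 141 of 9369. Without the block the count over all genes was also 0 in the other 6 classes, against 1 to 37 with it. Outside resident macrophages no alternative called one of the 5 adhesion GPCRs, with or without the replicate block. Of 81 log2 fold changes there, 8 changed sign, all uncalled. With a dataset left out in turn, Adgre4 in monocytes ranged from -0.061 to 0.24, and Adgre5 from -0.062 to 0.18 in monocytes, -0.27 to 0.10 in cDC2 and -0.30 to 0.12 in NK cells. Without the replicate block Adgre5 was at -0.0092 in monocytes and -0.12 in NK cells. Without the Bonn cortex library Adgre4 in monocytes was at -0.081 and Adgre5 in cDC2 at 0.082. The cause was not tested. Summing all cells of a cluster moved the first place of Adgrl3 from Malat+_Macrophage to Macrophage_2 (13.8 against 11.3 CPM). Thinning to 1000 in place of 500 UMIs moved the highest share of Adgrg1 among the 18 clusters from Malat+_T_cell to T_cell_2. The separate fit in Macrophage_3 was not run, since 1 dataset held enough cortical cells. Depth limits Adgrg1, Adgrl3 and Adgre4 outside monocytes, whose library sums fall to 0.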
